A study of Homo sapiens with 18 samples.

Results

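The 7 genes described here encode the main chaperones of the mitochondrial matrix and their partners: HSPD1, HSPE1, HSPA9, TRAP1, GRPEL1, GRPEL2 and HSCB. They were listed by name, as mitochondrial chaperones and cochaperones used to read the mitochondrial unfolded protein response; no threshold on their values enters the rule, although earlier results of these data were known. Each has 1 row among the 26485 gene rows of the count table, and all 7 were among the 12832 genes tested.

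Most mitochondrial proteins are made in the cytosol, threaded unfolded through the membranes and folded in the matrix. HSPA9 (mortalin), the matrix HSP70, pulls them in and holds them, HSPD1 (HSP60) and its lid HSPE1 (HSP10) form a closed cage in which they fold, and LONP1 is the protease that degrades those that fail. When matrix folding is disturbed, cells are known to raise nuclear transcription of these chaperones. Heat acts on some chaperone genes, though not on all, through heat shock factor 1 (HSF1), which binds heat shock elements.

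RNA of SW620 cells, an epithelial line from a lymph node metastasis of a colon adenocarcinoma, was sequenced in 18 libraries, 6 groups of 3 libraries from independent biological replicates. Cells received a scramble siRNA or siLonp1, an siRNA against Lonp1, and stayed at 37 °C (Ctrl), were heated to 42 °C for 1 h (HS), or had the same heating followed by 1 h of recovery at 37 °C (HS+REC). All groups were transfected cells of 1 line, and the methods list a pair of siRNAs against Lonp1 without naming the one used for sequencing. The study placed part of Lonp1 in the nucleus of unheated cells too, and more of it there after heat. It asked whether Lonp1 modulates the transcription that heat evokes.

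Library totals ran from 30815860 to 47279297 counts. The silenced gene, LONP1, stood at 220.6 ± 5.56, 213.8 ± 15.6 and 218.2 ± 18.6 CPM (counts scaled to the size of each library) in the scramble libraries of Ctrl, HS and HS+REC, and at 20.4 ± 1.75, 11.7 ± 0.153 and 27.2 ± 1.64 CPM in the siLonp1 libraries (mean ± SD, n = 3 each, scaled by TMM factors as are all CPM values here). The epithelial markers EPCAM, KRT8, KRT18, CDH1, CDX2 and VIL1 were all present, from 9.96 CPM for CDX2 upwards, and KRT20 was near the limit at 0.248 to 1.25 CPM. Of the 4 markers of other cells, PTPRC (leukocytes) and PECAM1 (endothelium) reached at most 0.0740 and 0.432 CPM. COL1A1, a collagen gene of fibroblasts, moved with heat: it had 7.99 to 9.89 CPM in Ctrl scramble, 15.1 to 19.0 in HS scramble and 29.5 to 30.7 in HS+REC scramble, and PDGFRB was higher in siLonp1 (1.62 to 3.53 CPM) than in scramble libraries (0.884 to 1.31). The 4 summed to 9.10 to 11.2 CPM in Ctrl scramble and to 34.4 to 37.5 CPM in HS+REC siLonp1, and their part in the results was not tested.

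The members lie on 5 chromosomes of hg38 (GENCODE v44). HSPD1 (chromosome 2, 197486584 to 197516737, minus strand) and HSPE1 (chromosome 2, 197500140 to 197503449, plus strand) are read in opposite directions. The annotated span of HSPE1 lies wholly within that of HSPD1, and the RefSeq start of HSPE1 is close to those used for HSPD1. The others are HSPA9 (chromosome 5, 138553756 to 138575675, minus strand), TRAP1 (chromosome 16, 3651639 to 3717553, minus strand), GRPEL1 (chromosome 4, 7058671 to 7068085, minus strand), GRPEL2 (chromosome 5, 149345430 to 149354583, plus strand) and HSCB (chromosome 22, 28742039 to 28757515, plus strand).

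Promoter windows of RefSeq (GRCh38.p14), 250 bases before and 50 after an annotated start, were at hand for 6 of the 7 genes, in 9 windows. They were searched on both strands for the heat shock element in its 2 arrangements, GAANNTTC and TTCNNGAA, which may overlap. HSPD1 held a block of 18 bases with 3 overlapping matches, 293 bases from the RefSeq start of HSPE1, at 197500379 (chr2:197500061-197500090, minus strand). The block lies at positions -245 to -228 from the RefSeq start of HSPD1 at 197499840. It is downstream of the other RefSeq start of HSPD1, at 197500274. The GENCODE start of HSPE1 given above, at 197500140, lies closer to the block than the RefSeq start that sets its window. HSPA9 held 1 match, which spanned its RefSeq start, at 138575401 (chr5:138575387-138575416, minus strand). The GENCODE start of HSPA9, at 138575675, lies further upstream, so the match is inside that annotated span. The 30 bases around each match are shown because HSPD1 and HSPA9 answered heat to very different degrees, and the matched letters are in capitals. Whether the presence or number of matches bears on the heat changes of any member was not tested.

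HSPD1: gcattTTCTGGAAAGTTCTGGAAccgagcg
HSPA9: tggttggaggtTTCCAGAAgcgctgccgcc

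Among all 35116 promoter windows, 13.5% held at least 1 match, 1.71% at least 2 and 0.194% at least 3. The other HSPD1 window and those of HSPE1, GRPEL2, TRAP1 and HSCB held none, which says only that these letters are not in these windows. The letters TGATGNAA, those of the ATF4 composite element, were in 0 of the 9 windows and in 3.62% of all windows, and TGCAAT, a half-site of CHOP composite elements, was in 1 of the 9, that of HSPD1, and in 8.21% of all. GRPEL2 is shown because it rose in HS in both arms without a match in its window, from the first base of its window to the base before its first annotated exon (chr5:149345249-149345429, plus strand, with no letters in capitals because no motif matched).

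GRPEL2: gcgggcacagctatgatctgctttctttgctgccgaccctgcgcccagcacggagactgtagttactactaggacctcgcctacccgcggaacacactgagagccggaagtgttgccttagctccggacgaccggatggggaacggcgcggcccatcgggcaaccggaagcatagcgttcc

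Unheated scramble-treated cells ranked the members, per kilobase of canonical transcript, as HSPD1 at 619.8 ± 14.1 CPM, TRAP1 at 233 ± 5.98, HSPA9 at 180.4 ± 4.16, HSPE1 at 75.9 ± 5.20, GRPEL1 at 38.4 ± 2.10, GRPEL2 at 11.6 ± 0.380 and HSCB at 6.53 ± 0.104 (mean ± SD, n = 3). Each neighbour in this order differed by more than its spread. In Ctrl siLonp1 the order of TRAP1 (177.8 CPM per kilobase) and HSPA9 (175.2) could not be told from their spread, and in HS+REC siLonp1 HSPA9 (202), HSPE1 (181.6) and TRAP1 (172.1) lay close together.

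The level of HSPE1 is uncertain. Of the 557 bases of its transcript, 192 (34.5%) also lie in exons of the read-through gene HSPE1-MOB4, and the annotation names 26 pseudogenes after HSPE1, 18 after HSPD1, 3 after GRPEL2 and 1 after HSPA9, none of which has a row in the table. How reads shared by such copies were counted is not given in the sources used here, so HSPE1 and HSPD1 may have lost reads, and the level per kilobase of HSPE1 cannot be set firmly against that of HSPD1.

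**Figure D1:**
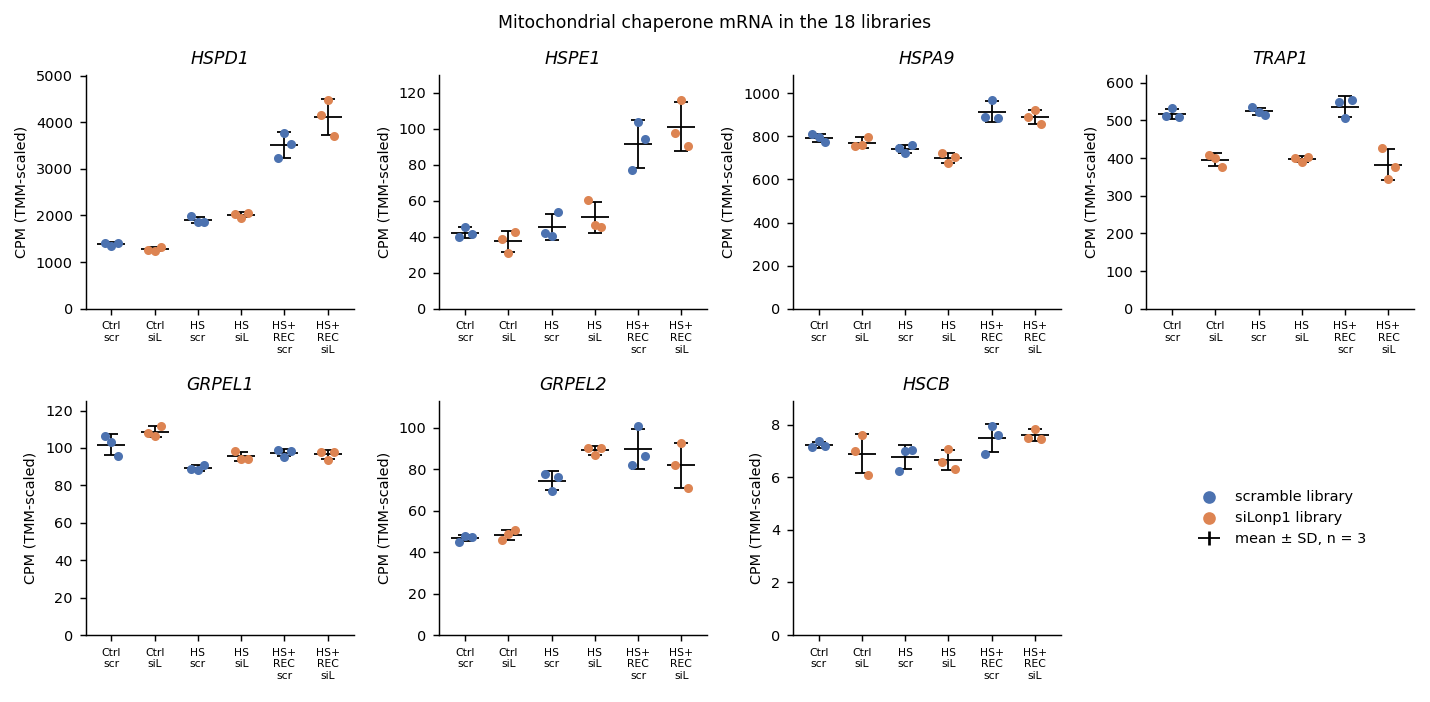
CPM (TMM-scaled, linear axes from 0) of each member in every library, by group (scr, scramble; siL, siLonp1), with black bars for mean ± SD (n = 3). HSPD1 and HSPE1 are highest in HS+REC, GRPEL2 is higher in all heated libraries than in Ctrl, and TRAP1 is lower in all siLonp1 libraries than in all scramble libraries.

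In HS+REC the chaperonin pair had the largest fold changes of the 7, and the larger step came after the return to 37 °C. HSPD1, the subunit of the folding cage, had 1414.5, 1355.3 and 1404.4 CPM in the 3 Ctrl scramble libraries, 1980.9, 1861.5 and 1864 CPM in HS and 3236, 3778.8 and 3523.8 CPM in HS+REC. In siLonp1-treated cells it had 1263, 1237.8 and 1320.1 CPM in Ctrl, 2027.8, 1955.9 and 2058.8 CPM in HS, and 4145.5, 4485.9 and 3701 CPM in HS+REC. The 3 conditions did not overlap in either arm. How many of all genes separated in this way was not counted, here or for the members below.

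HSPD1 rose in HS by a log2 fold change of 0.45 (standard error 0.06, 1.37-fold, adjusted p = 6.1e-06) in scramble-treated cells and 0.66 (1.58-fold, adjusted p = 1.3e-08) in siLonp1-treated cells, by edgeR's quasi-likelihood test with Benjamini-Hochberg adjustment over all genes tested, which gave every adjusted p below. Against Ctrl it was 2.52-fold higher in HS+REC in the scramble arm (log2 1.34, 95% interval 1.19 to 1.48, adjusted p = 6.0e-14) and 3.23-fold higher in the siLonp1 arm (log2 1.69, 1.55 to 1.83, adjusted p = 6.7e-16). From HS to HS+REC alone it rose by log2 0.89 (adjusted p = 3.4e-10) and 1.03 (adjusted p = 1.9e-11). All of these are changes in a share of the library: in bulk RNA, a change in which cells are present and a change of RNA per cell cannot be told apart.

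HSPE1, the lid of the cage, had 39.9, 45.5 and 41.5 CPM in Ctrl scramble, 42.1, 40.2 and 53.6 in HS scramble, and 77.0, 103.4 and 94.4 in HS+REC scramble. In siLonp1-treated cells its values were 38.9, 31.0 and 42.4 CPM in Ctrl, 60.6, 46.5 and 45.2 in HS, and 97.3, 116.1 and 90.1 in HS+REC. HS and Ctrl overlapped in the scramble arm and not in the siLonp1 arm, and HS+REC lay above both others in each arm.

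The HS change of HSPE1 was log2 0.09 (standard error 0.13, adjusted p = 0.615) in scramble-treated cells, with a 95% interval of -0.19 to 0.38 that also holds rises of up to that size. In siLonp1-treated cells it rose by 0.44 (adjusted p = 0.00927), a call that was lost without Ctrl siLonp1 replicate 2 or HS siLonp1 replicate 1 (adjusted p up to 0.0888). The difference between the arms was 0.35 (standard error 0.19, adjusted p = 0.392) and did not pass. In HS+REC it rose by 1.11 (adjusted p = 2.3e-07) and 1.44 (adjusted p = 3.4e-09).

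HSPE1 tracked HSPD1 over the 18 libraries with a Pearson r of 0.952 on log2 CPM, given as a description since the libraries share the heat treatment. Reads of HSPD1 per read of HSPE1 were 33.0 ± 2.93 in Ctrl scramble, 42.7 ± 6.86 in HS scramble and 38.6 ± 2.96 in HS+REC scramble, and 34.5 ± 4.74, 40.4 ± 6.21 and 40.8 ± 1.99 in the same conditions of siLonp1. The ratio did not overlap between Ctrl and HS+REC in the scramble arm (exact permutation test, 2-sided, p = 0.100, the smallest that 3 against 3 libraries can give) and overlapped in the other 3 comparisons of a heated group with its Ctrl.

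The read-through row HSPE1-MOB4 held few reads and had its highest counts in HS+REC. Summed over 3 libraries it had 6 counts in Ctrl scramble, 14 in HS scramble and 185 in HS+REC scramble, and 1, 44 and 199 counts in the siLonp1 groups. That is 0.0485 CPM (95% Poisson interval 0.0178 to 0.106, counting error only) in Ctrl scramble and 1.41 CPM (1.22 to 1.63) in HS+REC scramble, small beside HSPE1 itself.

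HSPA9, the matrix HSP70 of the import motor, changed far less. It had 809.6, 799.2 and 774 CPM in Ctrl scramble, 743.9, 723.2 and 761.6 in HS scramble and 888.8, 970.7 and 887 in HS+REC scramble. In siLonp1-treated cells it had 756.4, 758.9 and 798.9 CPM in Ctrl, 720.9, 676.9 and 704.4 in HS and 888.6, 922.6 and 857.6 in HS+REC. In both arms the HS libraries lay below the Ctrl libraries and the HS+REC libraries above them.

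The HS change of HSPA9 was log2 -0.10 (adjusted p = 0.160) in scramble-treated cells and -0.14 (standard error 0.05, adjusted p = 0.0369) in siLonp1-treated cells. The latter passed the threshold but was lost in 5 of 6 fits that left out 1 library, with adjusted p from 0.0377 to 0.143, and held only without HS siLonp1 replicate 1. It was also lost in a fit of only the groups compared and under either other filter. In HS+REC, HSPA9 rose by 0.21 in each arm, or 1.15-fold (adjusted p = 0.00282 for scramble and 0.00213 for siLonp1), and from HS to HS+REC by 0.30 (adjusted p = 1.0e-04) and 0.34 (adjusted p = 1.5e-05). The HS+REC call in scramble-treated cells was lost with library size only (0.12, adjusted p = 0.0534).

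HSPD1 and HSPA9 changed unequally with heat. Within a library, HSPD1 reads per HSPA9 read were 1.75 ± 0.0595 in Ctrl scramble, 2.56 ± 0.108 in HS scramble and 3.84 ± 0.173 in HS+REC scramble, and 1.65 ± 0.0194, 2.88 ± 0.0563 and 4.61 ± 0.277 in siLonp1. None of these groups overlapped its Ctrl or the other heated group of its arm (exact permutation test, 2-sided, p = 0.100 each, the smallest possible).

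GRPEL1 and GRPEL2 encode the mitochondrial GrpE proteins, which exchange the nucleotide of HSPA9, and the pair moved in opposite directions in HS. GRPEL2 had 44.9, 47.7 and 47.3 CPM in Ctrl scramble, 77.6, 69.2 and 76.2 in HS scramble and 82.2, 100.8 and 86.3 in HS+REC scramble. In siLonp1-treated cells it had 45.8, 48.8 and 50.6 CPM in Ctrl, 90.1, 86.7 and 90.2 in HS, and 81.8, 92.7 and 70.9 in HS+REC. Every heated library lay above every Ctrl library.

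GRPEL2 rose in HS by log2 0.67 (1.59-fold, adjusted p = 7.6e-07) in scramble-treated and 0.88 (1.84-fold, adjusted p = 7.8e-09) in siLonp1-treated cells, the largest fold changes of the 7 in HS, although the differences from HSPD1 were not tested. From HS to HS+REC it rose by a further 0.27 (adjusted p = 0.0146) in the scramble arm, a call lost without HS scramble replicate 2 or HS+REC scramble replicate 2 (adjusted p up to 0.130) or with library size only (adjusted p = 0.0511). In the siLonp1 arm the same step was -0.12 (95% interval -0.30 to 0.06, adjusted p = 0.282), and it passed as a fall without HS+REC siLonp1 replicate 2 (-0.22). Against Ctrl, GRPEL2 was 1.92-fold (adjusted p = 2.2e-09) and 1.69-fold (adjusted p = 6.0e-08) higher in HS+REC.

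GRPEL1 had 106.5, 103.2 and 95.6 CPM in Ctrl scramble, 88.9, 88.3 and 91.1 in HS scramble and 98.7, 95.4 and 98.2 in HS+REC scramble. Its siLonp1 values were 108.2, 106.3 and 111.8 CPM in Ctrl, 98.2, 94.0 and 94.2 in HS and 98.0, 93.8 and 98.1 in HS+REC. HS lay below Ctrl in both arms, without overlap.

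In HS, GRPEL1 fell by 0.19 on the log2 scale in each arm (adjusted p = 0.00774 for scramble and 0.00576 for siLonp1). The scramble call was lost without Ctrl scramble replicate 1 (adjusted p = 0.0560). In HS+REC its change was -0.06 (adjusted p = 0.364) in scramble-treated cells, and it fell by 0.17 (adjusted p = 0.00938) in siLonp1-treated cells, with a difference between the arms of -0.11 (standard error 0.07, adjusted p = 0.570). The siLonp1 call was lost in a fit of only the groups compared (adjusted p = 0.0841), and with library size only the scramble change passed as well (-0.15, adjusted p = 0.0257).

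The ratio of GRPEL2 to GRPEL1 reads within a library was 0.460 ± 0.0369 in Ctrl scramble and 0.445 ± 0.0192 in Ctrl siLonp1. It stood at 0.831 ± 0.0443 and 0.932 ± 0.0219 in HS, and at 0.923 ± 0.118 and 0.849 ± 0.133 in HS+REC, so that GRPEL2 had fewer reads than GRPEL1 in each group mean. A single library, in HS+REC scramble, had a ratio above 1, at 1.06. The highest Ctrl library had 0.495 and the lowest heated library 0.723 (exact permutation test of each heated group against its Ctrl, 2-sided, p = 0.100, the smallest possible). Per kilobase GRPEL1 stayed the higher of the pair, at 36.7 against 22.3 CPM in HS+REC scramble.

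**Figure D2:**
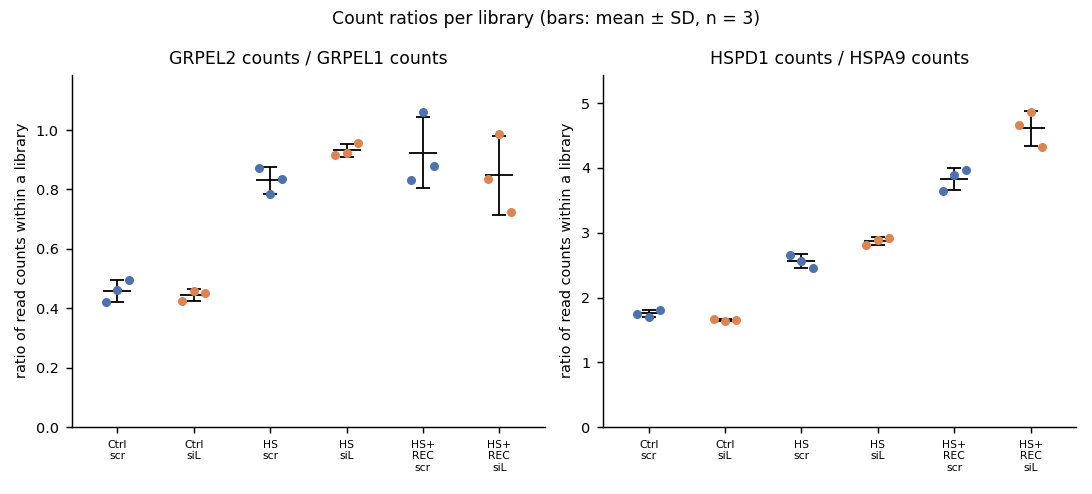
Read-count ratios within each library, GRPEL2 over GRPEL1 on the left and HSPD1 over HSPA9 on the right, by group (scr, scramble; siL, siLonp1; linear axes from 0; bars, mean ± SD, n = 3). The GRPEL2 to GRPEL1 ratio is already at its higher level in HS, whereas the HSPD1 to HSPA9 ratio is higher in HS+REC than in HS.

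HSCB, the J-domain partner that hands the iron-sulfur scaffold to HSPA9, was the rarest member, at 223 to 357 counts per library. Its group means ran from 6.65 ± 0.386 CPM in HS siLonp1 to 7.60 ± 0.218 CPM in HS+REC siLonp1, and no contrast of it passed the threshold. Its largest difference was 0.19 between HS+REC and HS in siLonp1-treated cells (95% interval -0.01 to 0.40, unadjusted p = 0.0481, adjusted p = 0.120). Of its 1106 transcript bases, 293 (26.5%) lie opposite exons of CHEK2, which had 12.2 to 16.4 CPM, and the strand setting of the counting is not given in the sources used here: without it, reads of the pair over these bases cannot be told apart.

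TRAP1, the mitochondrial HSP90, did not pass the threshold in any heat contrast. It had 510.8, 533.3 and 509.8 CPM in Ctrl scramble, 535, 521.1 and 515.5 in HS scramble and 549.8, 505.5 and 555.2 in HS+REC scramble. In siLonp1-treated cells it had 408.5, 401.1 and 376.2 CPM in Ctrl, 401, 388.3 and 403.6 in HS and 427.2, 345.2 and 375.1 in HS+REC. The conditions overlapped within each arm, while all 9 siLonp1 libraries lay below all 9 scramble libraries. For siLonp1 against scramble, 49.2%, 54.8% and 54.1% of all genes passed in Ctrl, HS and HS+REC. The share of genes that separate as TRAP1 does was not counted.

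The heat changes of TRAP1 were log2 0.02 (95% interval -0.12 to 0.15) and 0.01 (-0.13 to 0.15) in HS and 0.05 (-0.09 to 0.19) and -0.05 (-0.19 to 0.09) in HS+REC, for scramble and siLonp1. These intervals do not reach the 1.37-fold rise of HSPD1 in HS. DNASE1, which lies opposite 866 of the 2223 bases (39.0%) of TRAP1, had 2.48 to 5.89 CPM.

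**Figure D3:**
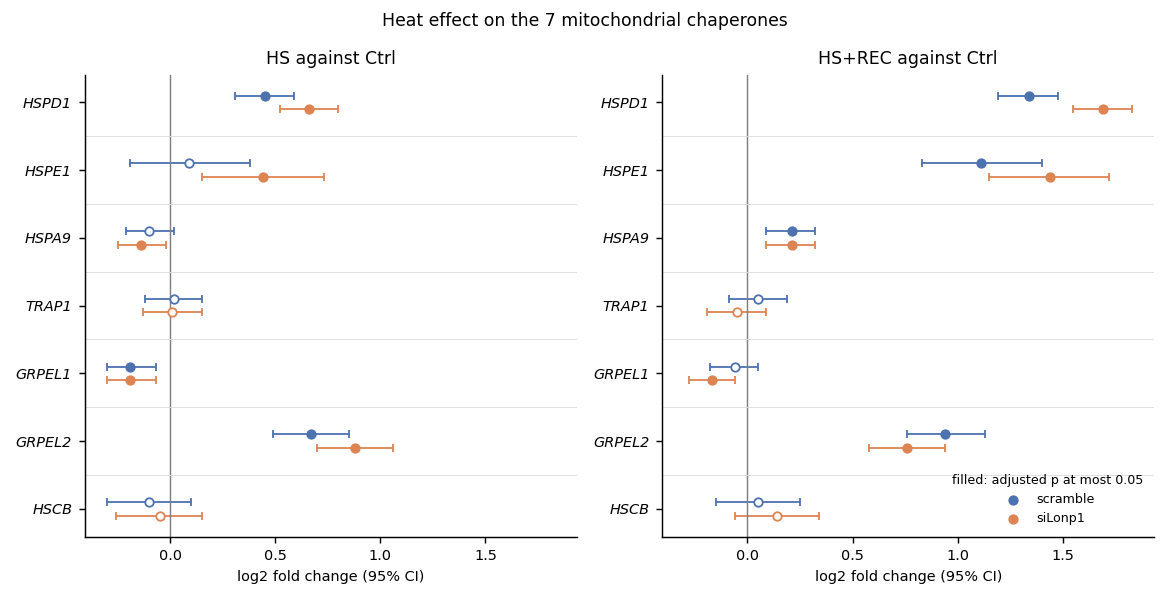
Log2 fold change against Ctrl of the same arm with its 95% interval, for HS on the left and HS+REC on the right (filled points, adjusted p at most 0.05). HSPD1, HSPE1 and GRPEL2 are the highest members in HS+REC, from 0.76 to 1.69, and TRAP1 and HSCB span 0 throughout.

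Counted over the 7 members, HS raised 2 and lowered 1 in scramble-treated cells, where 36.0% of all genes tested passed in either direction, and raised 3 and lowered 2 in siLonp1-treated cells, where 42.2% passed. HS+REC raised 4 and lowered 0 in the scramble arm (42.3% of all genes passed) and raised 4 and lowered 1 in the siLonp1 arm (51.2%). With library size only the scramble count became 3 raised and 1 lowered, since HSPA9 no longer passed and GRPEL1 did. From HS to HS+REC 4 members rose and 0 fell in scramble-treated cells (26.8% of all genes passed), and 3 rose and 0 fell in siLonp1-treated cells (31.9%). The median change of the 7 was 0.02 and 0.01 in HS and 0.21 in both arms in HS+REC, beside medians of all genes between -0.01 and 0.00. HS and HS+REC share their Ctrl libraries, so these counts are not independent of each other. COL1A1 was also highest in HS+REC, at 29.5 to 34.5 CPM over both arms, and its part in these counts was not tested.

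With the fold limit of 2 that the study used, 0 members passed in HS in either arm, where 3.30% and 4.57% of all genes did. HSPD1 and HSPE1 passed it in HS+REC in both arms, where 4.46% and 5.71% of all genes did. The other 5 members did not pass it in any of these 4 contrasts.

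TRAP1 fell with siLonp1 in all 3 conditions. In Ctrl it fell by 0.39 on the log2 scale (standard error 0.06, a drop of 23.7%, adjusted p = 2.5e-05), in HS by 0.40 (24.1%, adjusted p = 1.6e-05) and in HS+REC by 0.49 (28.8%, adjusted p = 1.0e-06). The differences of the HS and HS+REC effects between the arms were -0.01 (95% interval -0.20 to 0.19) and -0.10 (-0.29 to 0.10).

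No other member passed in Ctrl, where 1 of 7 fell and 0 rose while 49.2% of all genes tested passed. HSPD1 was at -0.13 (adjusted p = 0.105), HSPE1 at -0.18 (adjusted p = 0.280), HSPA9 at -0.04, GRPEL1 at 0.10, GRPEL2 at 0.05 and HSCB at -0.07. In a fit of only the groups compared, HSPD1 (-0.14, adjusted p = 0.00596) and HSPE1 (-0.19, adjusted p = 0.0285) passed as well, so that 3 of 7 fell, and with library size only HSPD1 alone was added (-0.20). LONP1 itself fell by 90.7% in the same comparison. The 95% intervals of these 6 members together spanned -0.47 to 0.24.

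In HS, GRPEL2 rose with siLonp1 by 0.26 (1.20-fold, adjusted p = 0.00995) and TRAP1 fell, with 54.8% of all genes passing. The HS scramble libraries of GRPEL2 ended at 77.6 CPM and those of HS siLonp1 began at 86.7. The call was lost without HS scramble replicate 2 (adjusted p = 0.0604) and with library size only (0.16, adjusted p = 0.0897), where HSPA9 passed instead (-0.18, adjusted p = 0.00435). In HS+REC, HSPD1 rose with siLonp1 by 0.23 (1.17-fold, adjusted p = 0.00486) and TRAP1 fell, with 54.1% of all genes passing, and GRPEL2 was at -0.13 (adjusted p = 0.169), which passed with library size only (-0.21, adjusted p = 0.0355) and without HS+REC siLonp1 replicate 2 (-0.23). The HSPD1 libraries of the 2 arms overlapped there, since HS+REC siLonp1 replicate 3 (3701 CPM) lay below HS+REC scramble replicate 2 (3778.8 CPM).

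**Figure D4:**
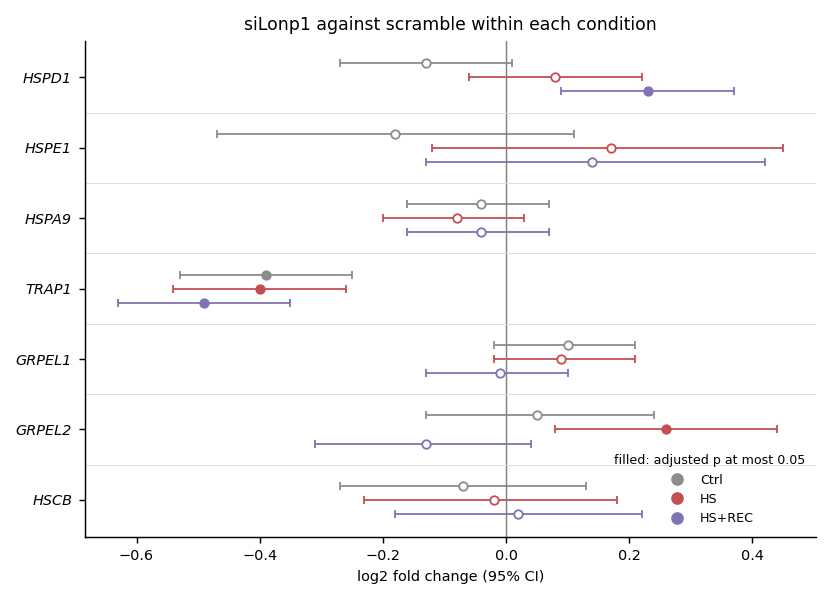
Log2 fold change of siLonp1 against scramble within Ctrl, HS and HS+REC with its 95% interval (filled points, adjusted p at most 0.05). TRAP1 is lower in all 3 conditions, from -0.39 to -0.49, and HSPD1 goes from -0.13 in Ctrl to 0.23 in HS+REC.

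Whether silencing altered the heat response itself was tested as the difference of the heat effects between the arms. For HS, 0 of 7 members passed by edgeR's quasi-likelihood test, where 1.87% of all genes did. DESeq2 and edgeR's likelihood ratio test gave 0 as well. Before adjustment, 1 member passed 0.05 in edgeR's quasi-likelihood test, HSPD1 (difference 0.21, adjusted p = 0.267).

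For HS+REC, HSPD1 passed, at a difference of 0.35 (standard error 0.09, 95% interval 0.16 to 0.55, adjusted p = 0.0468), where 1.58% of all genes did. The HS+REC rise of HSPD1 was 2.52-fold in scramble-treated and 3.23-fold in siLonp1-treated cells. Its adjusted p lay just inside the threshold and did not hold in 10 of 12 fits that left out 1 library (difference 0.29 to 0.43, adjusted p 0.00815 to 0.135), the exceptions being those without HS+REC scramble replicate 2 or HS+REC siLonp1 replicate 3. The call was also lost with a replicate block and in a fit of only the groups compared (adjusted p up to 0.0926). HSPE1 had a difference of 0.32 (standard error 0.18, adjusted p = 0.469), and the remaining 5 lay between -0.19 and 0.09.

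In HS+REC the libraries of a group differed in the same direction for several members. In both arms replicate 2 had the highest HSPD1, HSPE1, HSPA9, GRPEL2 and HSCB and the lowest TRAP1 and GRPEL1 of its group. Its part in the results was not tested beyond leaving it out. The HSPD1 difference between the arms lost its call without HS+REC siLonp1 replicate 2 and kept it without HS+REC scramble replicate 2.

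Beside the 7 members, lists of other genes of the same organelle and of their cytosolic counterparts were counted. Of the 6 tested of 7 listed partners of matrix HSP70 and of the import motor, 0 rose and 1 fell in HS scramble and 2 rose and 0 fell in HS+REC scramble, with a median of 0.00 (36.0% and 42.3% of all genes passed). The 2 were TIMM44, the anchor of HSPA9 at the import channel (log2 0.30, adjusted p = 2.1e-04), and DNAJC15, a J-domain protein of the motor (0.25, adjusted p = 0.00251). In HS+REC siLonp1 the same pair rose, by 0.40 (adjusted p = 5.1e-06) and 0.61 (adjusted p = 3.2e-08). With siLonp1 in Ctrl, TIMM44 fell by 0.30 (adjusted p = 2.6e-04), and 3 of the 6 fell and 1 rose, where 49.2% of all genes passed.

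Of 10 mitochondrial proteases other than LONP1, 0 rose and 3 fell in HS+REC scramble, where 42.3% of all genes passed. These were AFG3L2 (-0.38) and SPG7 (-0.29), subunits of the matrix AAA protease, and PMPCA (-0.32), a subunit of the peptidase that removes import signals. In HS+REC siLonp1 1 rose and 4 fell, where 51.2% of all genes passed, and with siLonp1 in Ctrl 1 rose and 4 fell, where 49.2% did. CLPP, the peptidase of the other soluble matrix protease, rose in the latter by 0.38 (adjusted p = 4.3e-04) while OMA1, a stress-activated inner membrane protease, fell by 0.71 (adjusted p = 1.6e-06).

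Of 7 tested genes of mitochondrial stress signalling, of 8 listed, 2 rose and 1 fell in HS+REC scramble, where 42.3% of all genes passed. DDIT3 (CHOP), a transcription factor of the unfolded protein responses, rose by 1.64 (9.36 to 29.2 CPM, adjusted p = 3.4e-12) and CEBPB, its partner, by 1.78 (adjusted p = 2.1e-09). ATF5, the factor held to drive mitochondrial chaperone genes, fell by 0.95 (22.9 to 11.8 CPM, adjusted p = 3.0e-09). With siLonp1 in Ctrl, ATF5 rose by 0.28 (adjusted p = 0.00587) and DDIT3 fell by 0.47 (adjusted p = 0.00121), and HSF1 fell by 0.24 (adjusted p = 0.00754). ATF4, named after its values were seen, fell by 0.23 (adjusted p = 6.6e-04), so that 1 of the 7 rose and 3 fell, where 49.2% of all genes passed. With siLonp1 in HS, ATF4 rose by 0.24 (adjusted p = 4.1e-04), and 1 of the 7 rose and 1 fell, where 54.8% of all genes passed. The HS effect on ATF4 differed between the arms by 0.48 (adjusted p = 9.1e-04). There 1 of the 7 passed, beside 1.87% of all genes.

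The cytosolic counterparts of HSPD1 and HSPE1, the 8 subunits of the TCP1 ring complex, gave 7 that rose and 0 that fell in HS+REC in each arm (42.3% and 51.2% of all genes passed in either direction), with medians of 0.33 and 0.38 beside 0.21 for the 7 mitochondrial members. TCP1 itself rose by 1.20 (adjusted p = 1.8e-12) in scramble-treated and 1.51 (adjusted p = 2.4e-14) in siLonp1-treated cells, close to the 1.34 and 1.69 of HSPD1. The cytosolic and endoplasmic reticulum counterparts of HSPA9 and TRAP1 had a median of 1.72 and 1.81, and 5 of 7 rose and 0 fell in the scramble arm. The 2 that did not pass there, named after their values were seen, were the endoplasmic reticulum chaperones HSPA5 (0.13) and HSP90B1 (0.12). In the siLonp1 arm 6 of 7 rose and 0 fell. HSPA5 passed in that arm (0.22, adjusted p = 0.00131) and HSP90B1 (0.13) did not. Of those that rose in the scramble arm, HSPA1A, the heat-inducible HSP70, was at 7.90 and HSP90AA1, the inducible cytosolic HSP90, at 2.05. HSPA9 was at 0.21 and TRAP1 at 0.05 in the same arm. Among the exchange factors of cytosolic and endoplasmic reticulum HSP70, the counterparts of GRPEL1 and GRPEL2, 4 of 8 rose in HS scramble and 3 fell (36.0% of all genes passed), with BAG3 at 5.37 and HSPH1 at 2.76.

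**Figure D5:**
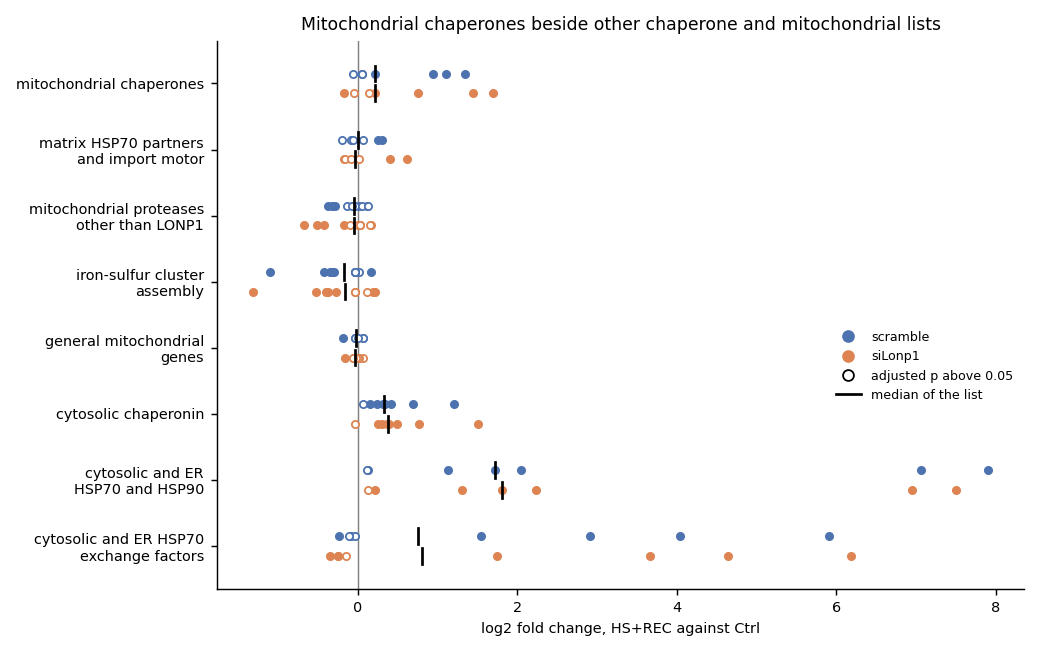
Log2 fold change of HS+REC against Ctrl for the 7 mitochondrial chaperones and 7 other lists (stress signalling is not drawn), 1 point per gene, in scramble-treated (blue) and siLonp1-treated (orange) cells, with a black bar at the median of each list. The mitochondrial chaperones reach 1.69, the other 4 mitochondrial lists drawn run from -1.31 (IBA57) to 0.61 (DNAJC15), and the cytosolic lists reach 7.90.

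The genes whose log2 CPM ran most like each member over the 18 libraries were named by rule, as a description, since all libraries share the treatments. For HSPD1 they were TCP1 (r = 0.995), ST13 (0.993) and HSPA4L (0.991), which encode a cytosolic chaperonin subunit, an HSP70 cochaperone and an HSP110. For HSPE1 they were CCT4 (0.979), EIF2S2 (0.973) and CCT6A (0.972), the first and the last also subunits of the cytosolic chaperonin. GRPEL2 ran with LRIF1, SRSF11 and C2orf42 (0.972 each), HSPA9 with PLRG1 (0.958), SHQ1 (0.947) and TXNRD1 (0.946), and TRAP1 with TKT (0.987), POLD2 (0.984) and ACAD9 (0.978). GRPEL1 reached at most 0.898 (SRSF7), and HSCB, whose libraries differ little, at most 0.767 (DNALI1). Among the members, GRPEL1 and GRPEL2 had an r of -0.658.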

How the data were processed

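Stranded, paired-end mRNA libraries of the 18 samples were sequenced by the authors, aligned to hg38 with STAR 2.7.3a and counted with featureCounts, as the study's methods and the submitters' processing notes state. The deposited table holds raw counts per gene symbol, with no normalization. The annotation release, the strand setting, the handling of shared reads and any removal of duplicates are not given in the sources used here.

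Columns were mapped to samples by name. Following the study's filter, a gene needed a CPM above 1 in 3 or more libraries (12832 of 26485 passed). Counts were fitted with edgeR 4.0.16 in R 4.3.3: TMM factors (0.934 to 1.06), 1 model with a mean for each of the 6 groups, quasi-likelihood tests and Benjamini-Hochberg adjustment over all genes tested. A gene was called at an adjusted p of at most 0.05, and counted again with a fold change above 2. The common biological coefficient of variation was 0.0658. Replicates differed by more than counting noise (chi-square per degree of freedom 3.48 to 25.8), so none was treated as a duplicate. Ratios of counts within a library were compared by exact permutation tests. The edgeR script was tested on simulated data. CPM per kilobase used the length of the GENCODE v44 canonical transcript. Correlations used log2 CPM with a prior count of 2.

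The members and the gene lists were chosen with earlier results of these data known. Named were the 7 members, LONP1, at most the 3 called genes with the largest change per list and contrast, the 3 genes most correlated with each member, and read-through genes with a member's symbol. Results were recomputed with no scaling beyond library size, with RLE size factors, without a filter, with CPM above 1 in all 18 libraries, and with a likelihood ratio test, DESeq2 1.42.0, a replicate block, a fit of only the groups compared, an FDR of 0.01, the fold limit, HSPE1 summed with HSPE1-MOB4, and each library left out.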

Additional observations from a re-analysis of the deposited data

Results flagged for a closer look

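The HS+REC effect on HSPD1 differed between the arms by 0.35 on the log2 scale (siLonp1 minus scramble), by the interaction term of edgeR's quasi-likelihood model (adjusted p = 0.0468). The effect was 1.34 in scramble-treated and 1.69 in siLonp1-treated cells. In Ctrl, HSPD1 was at -0.13 with siLonp1 and did not pass the threshold (adjusted p = 0.105), and in HS+REC it rose by 0.23 (adjusted p = 0.00486), so that both ends enter the difference. Over the alternatives other than left-out libraries its adjusted p ran from 0.00745 to 0.0926, and the call was lost with a replicate block and in a fit of only the groups compared. Groups held 3 libraries, so no search for single outlying libraries was made.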

How the results depend on the processing

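Over 1393 values recomputed for the 7 members, 1277 kept their direction and side of the threshold, 57 lost a call, 8 gained one and 51, none of them called, changed sign. With each library left out in turn, 487 of 546 values kept both.

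With the fold limit of 2, the number of members called became 0 for HS in either arm, 2 for HS+REC in either arm, 1 for HS+REC against HS in either arm, and 0 for siLonp1 in any of the 3 conditions and for the interaction with HS+REC. The share of all genes passing the fold limit was counted only for HS and HS+REC against Ctrl, so the other counts cannot be set against it. The interaction with HS+REC also had 0 called members at an FDR of 0.01, under the replicate block and in a fit of only the groups compared. For siLonp1 in Ctrl, 2 members were called with library size only, as HSPD1 fell by 0.20, and 3 in a fit of only the groups compared. Calls ranged with a library left out from 3 to 4 for HS in siLonp1, lowest without Ctrl siLonp1 replicate 2, from 1 to 2 for siLonp1 in HS, lowest without HS scramble replicate 2, and from 0 to 1 for the interaction with HS+REC.

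Single calls that were lost were HSPA9 in HS siLonp1 (no filter, the stricter filter and only the groups compared), GRPEL1 in HS+REC siLonp1 (only the groups compared, adjusted p = 0.0841), and with library size only GRPEL2 in HS+REC against HS in scramble (adjusted p = 0.0511), HSPA9 in HS+REC scramble (0.0534) and GRPEL2 for siLonp1 in HS (0.0897). Single calls that were gained with library size only, beside HSPD1 for siLonp1 in Ctrl, were falls of GRPEL1 in HS+REC scramble, HSPA9 for siLonp1 in HS and GRPEL2 for siLonp1 in HS+REC. The median of all genes moved by up to -0.10 with library size only.

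Values that changed sign lay near 0. With library size only, TRAP1 was at -0.01 in HS scramble, -0.04 in HS siLonp1, -0.03 in HS+REC scramble and -0.02 in HS+REC against HS in scramble, HSCB at -0.03 in HS+REC scramble and -0.05 for siLonp1 in HS+REC, GRPEL1 at -0.01 in HS+REC against HS in siLonp1 and -0.00 for siLonp1 in HS, GRPEL2 at -0.02 for siLonp1 in Ctrl and HSPD1 at -0.01 for siLonp1 in HS. Without a filter GRPEL1 was at -0.01 in HS+REC against HS in siLonp1 and HSPA9 at -0.02 for the interaction with HS+REC, where only the groups compared gave -0.00. RLE and DESeq2 gave GRPEL1 0.00 for the interaction with HS. With a library left out, signs changed within -0.02 to 0.17 for HSPE1 in HS scramble. In HS siLonp1 the ranges were -0.14 to 0.02 for HSCB and -0.03 to 0.03 for TRAP1, in HS+REC siLonp1 -0.13 to 0.02 for TRAP1, and in HS+REC against HS in siLonp1 -0.00 to 0.04 for GRPEL1 and -0.15 to 0.01 for TRAP1. For siLonp1 they were -0.14 to 0.01 for HSCB in Ctrl, -0.08 to 0.01 for HSCB in HS, and -0.03 to 0.01 for GRPEL1, -0.03 to 0.07 for HSCB and -0.07 to 0.00 for HSPA9 in HS+REC. For the interaction with HS they were -0.04 to 0.04 for GRPEL1, -0.04 to 0.12 for HSCB and -0.04 to 0.02 for TRAP1, and with HS+REC -0.03 to 0.05 for HSPA9. The causes were not tested.

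Same replicate numbers did not pair the libraries: correlations of same-numbered deviations ran from -0.379 to 0.462, and in 0 of 9 comparisons was every one above 0.1. With the replicate block 29 of 77 member values were called, all among the 30 called without it. The value lost was the HSPD1 interaction with HS+REC. No row of a pseudogene of a member was present, so that alternative was not run.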

Other observations

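Of 10 tested of 11 listed other genes of iron-sulfur cluster assembly, which HSCB and HSPA9 serve, 0 rose and 5 fell in HS scramble and 1 rose and 5 fell in HS+REC scramble, where 36.0% and 42.3% of all genes passed, with medians of -0.15 and -0.17 beside medians of all genes of -0.01 and -0.00. In siLonp1-treated cells 0 rose and 4 fell in HS and 2 rose and 5 fell in HS+REC, where 42.2% and 51.2% of all genes passed. IBA57, a late-acting assembly factor, fell by 1.10 (21.5 to 10.0 CPM, adjusted p = 1.2e-08) in HS+REC scramble and by 1.31 (21.2 to 8.57 CPM, adjusted p = 7.4e-10) in HS+REC siLonp1, by edgeR's quasi-likelihood test. With siLonp1 in Ctrl, NFS1, the cysteine desulfurase, fell by 0.28 (adjusted p = 4.5e-04), and 3 of the 10 fell and 1 rose, where 49.2% of all genes passed.

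Of 8 tested of 10 listed general mitochondrial genes, 0 rose and 2 fell in HS scramble, where 36.0% of all genes passed, and 0 rose and 1 fell in HS+REC scramble, where 42.3% did, with medians of -0.08 and -0.02. With siLonp1 in Ctrl, CS, citrate synthase, rose by 0.33 (465 to 584.1 CPM, adjusted p = 7.6e-06), and SDHA, a subunit of complex II, fell by 0.31 (406.1 to 328.4 CPM, adjusted p = 5.6e-05), of 2 that rose and 2 that fell, where 49.2% of all genes passed.

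MOB4, which shares exons with HSPE1-MOB4 downstream of HSPE1, had only 3 to 13 counts in any library, while the read-through row HSPE1-MOB4 reached 75 counts in HS+REC siLonp1. How reads common to both rows were assigned is not given in the sources used here.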
